A study of Mus musculus with 112 samples.

Results

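The transcripts of 10 circadian clock genes were followed across 3 sorted cell populations of the mouse intestinal crypt in young and aged animals. They were Arntl (also called Bmal1), Clock, Per1, Per2, Per3, Cry1, Cry2, Nr1d1, Nr1d2 and Dbp, chosen by symbol, and each had a row among the 32285 genes of the count table. All animals were C57BL/6 mice carrying the Lgr5-eGFP-IRES-CreERT2 allele, in which the Lgr5 gene drives a green fluorescent protein (GFP) and an inducible Cre recombinase, and no other treatment is named in the labels. Young mice were 2 to 3 months old and aged mice 23 to 27 months old. Intestinal stem cells (ISCs) were sorted by high GFP and progenitors by medium or low GFP (each with high Epcam and low CD24), while Paneth cells were GFP negative, CD24 high and high in side scatter. There were 11 young and 12 aged ISC samples, 10 young and 10 aged progenitor samples and 12 young and 12 aged Paneth samples, with both sexes in every group.

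The circadian clock is a loop of transcription and delayed repression that runs in nearly every cell with a period of about a day. ARNTL and CLOCK form an activator that binds E-box sequences and turns on the Per and Cry genes, whose proteins return to repress it. The same activator turns on Nr1d1 and Nr1d2, nuclear receptors that repress Arntl through ROR elements, and Dbp, a transcription factor that acts through D-box sequences. In the intestine the clock is known for daily rhythms in crypt cell division and nutrient transport. The sources used here do not give the hour at which the mice were killed, so a level below is that of an animal at an unknown hour.

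To show the elements through which these genes are wired to each other, the promoters of the 13 RefSeq start sites listed for the members (GRCm38.p6, 250 bases before to 50 after the start, in the direction of transcription) were searched on both strands. The letters searched were CACGTG for the E-box and TTATGTAA or TTACGTAA for the D-box, beside the core of the ROR element, and the motifs found did not overlap. Start sites were listed for 9 of the 10 genes, all but Per2. An E-box was found at Per1 (chr11:69098699-69098998, plus strand), first base 166 bases before the start, and at Cry1 (chr10:85185005-85185304, minus strand), 60 bases before it. At Per3 (chr4:151044616-151044915, minus strand) there were D-boxes 205 and 158 bases before the start, and at Arntl (chr7:113207261-113207560, plus strand) a ROR element core began 28 bases after it. Of all 32851 promoters of this length, 7.15% held the E-box, 1.06% the D-box and 0.435% the ROR element core. These matches describe the sequence and say nothing of binding in these cells. The 4 windows that held a motif follow, with the motif in capitals.
Arntl: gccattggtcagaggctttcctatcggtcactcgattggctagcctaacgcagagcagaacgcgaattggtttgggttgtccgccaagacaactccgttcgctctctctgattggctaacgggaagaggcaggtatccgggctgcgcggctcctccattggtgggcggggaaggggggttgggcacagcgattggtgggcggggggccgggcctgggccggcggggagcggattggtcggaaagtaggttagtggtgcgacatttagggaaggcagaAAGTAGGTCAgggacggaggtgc
Per1: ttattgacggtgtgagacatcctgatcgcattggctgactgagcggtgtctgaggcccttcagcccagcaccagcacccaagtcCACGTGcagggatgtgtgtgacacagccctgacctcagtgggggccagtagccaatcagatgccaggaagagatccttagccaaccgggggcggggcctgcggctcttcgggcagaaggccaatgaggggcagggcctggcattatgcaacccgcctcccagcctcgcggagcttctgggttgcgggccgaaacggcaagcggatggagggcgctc
Per3: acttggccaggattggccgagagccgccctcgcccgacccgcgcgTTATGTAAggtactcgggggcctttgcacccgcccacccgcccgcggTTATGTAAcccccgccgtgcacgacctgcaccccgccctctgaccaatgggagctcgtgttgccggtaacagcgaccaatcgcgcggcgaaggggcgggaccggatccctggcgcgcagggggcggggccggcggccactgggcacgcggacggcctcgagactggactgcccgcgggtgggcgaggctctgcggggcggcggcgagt
Cry1: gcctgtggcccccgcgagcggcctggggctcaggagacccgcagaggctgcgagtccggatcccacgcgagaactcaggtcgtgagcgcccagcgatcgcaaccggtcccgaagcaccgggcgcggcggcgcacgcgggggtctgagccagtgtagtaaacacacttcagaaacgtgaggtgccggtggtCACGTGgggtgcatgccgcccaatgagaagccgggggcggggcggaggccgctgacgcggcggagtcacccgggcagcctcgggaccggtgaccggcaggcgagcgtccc

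The median sample held 4.06 M counts among ISCs, 4.83 M among progenitors and 7.11 M among Paneth cells, the latter summed over 2 or 3 technical libraries per animal. Transcripts of the mitochondrial genome made up 58.2% of a Paneth sample at the median, where ISCs had 5.88% and progenitors 4.02%. The summed level of 6 Paneth markers was 98328 CPM or more in every Paneth sample and at most 2114 CPM in the others, and that of 6 ISC markers was 6461 CPM or more in every ISC sample and at most 5220 CPM elsewhere. The Paneth gate also held transcripts of other cells: 5 enteroendocrine markers summed to a median of 858 CPM in young and 1890 CPM in aged Paneth samples, 4 tuft cell markers to 399 and 321 CPM, and 7 immune markers to 112 and 114 CPM. Against ISCs, all tested members of these lists, and all 6 enterocyte and 5 goblet markers (median differences 5.42 and 2.58), were called higher in the Paneth gate, and their part in the Paneth differences below was not tested. The goblet sum had medians of 14351 and 13839 CPM in young and aged progenitors, beside 3542 and 3902 CPM in Paneth samples. All 5 goblet markers were called higher in progenitors than in ISCs (median 4.85) and lower in Paneth cells than in progenitors (-1.87). Their part in the progenitor differences below was not tested. The 6 ISC markers summed to medians of 2504 and 2892 CPM in young and aged Paneth samples, beside 1272 and 1212 CPM in progenitors. All 6 were called higher in Paneth cells than in progenitors and lower than in ISCs. The part of ISC transcripts in the differences of Paneth cells from progenitors below, including those of Per1, Per2 and Nr1d2, was not tested. Levels below are TMM-scaled counts relative to library size (CPM), and differences are log2 fold changes ± SE. In bulk samples fewer cells of a type and less RNA per cell cannot be told apart.

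Between the cell types, several clock genes differed. The activator gene Arntl was lowest in Paneth cells and Nr1d1 was highest there, while Clock did not pass in any comparison. Nr1d2, Per1 and Per2 were lowest in progenitors. Not all of these differences passed in every alternative fit, as given below. In progenitors against ISCs, 0 of the 10 clock genes were called higher and 3 lower at an adjusted p under 0.05, where 20.1% and 18.4% of the 13287 genes tested were called higher and lower. In Paneth cells against ISCs, 1 was higher and 1 lower, beside 22.9% and 20.3% of all genes. In Paneth cells against progenitors, 4 were higher and 1 lower, beside 21.1% and 18.9%. The median difference of the 10 genes was -0.56 in progenitors against ISCs, -0.03 in Paneth cells against ISCs and 0.82 in Paneth cells against progenitors, where the medians of all genes were -0.04, -0.04 and 0.00. These counts do not set the clock genes apart from other genes.

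**Figure D1:**
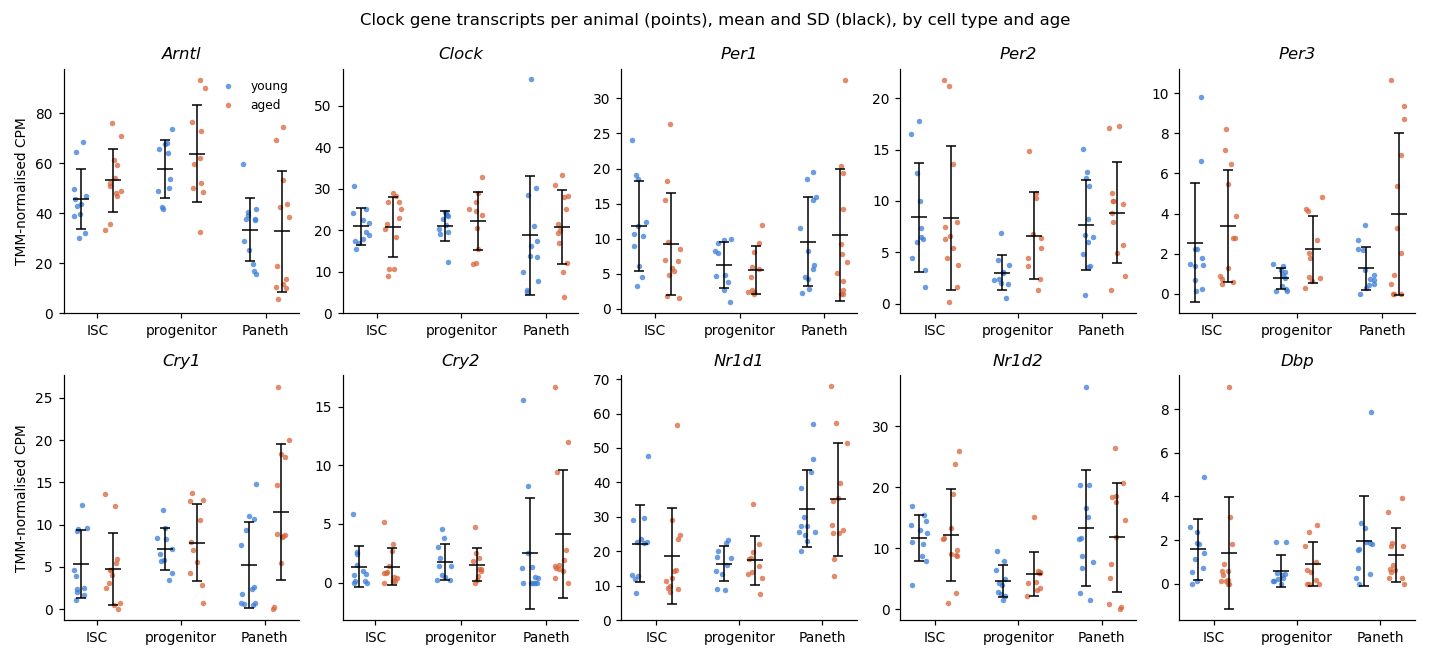
TMM-normalised CPM (linear vertical axes) of the 10 clock genes in every sample, with young animals in blue, aged animals in orange and the mean and SD in black. Nr1d1 sits highest in Paneth cells and Arntl lowest there, Nr1d2 is lowest in progenitors, and young and aged points overlap for every gene in every cell type.

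Arntl (chr7:113207465-113314126, plus strand, GRCm38) encodes the subunit of the activator that is rhythmic in most tissues. It ranged from 30.2 to 76.0 CPM in the 23 ISC samples (median 48.2), from 32.3 to 93.5 CPM in the 20 progenitor samples (median 60.9) and from 5.72 to 74.6 CPM in the 24 Paneth samples (median 37.5). The ranges overlapped, but 22 of 24 Paneth samples lay under the progenitor median. The difference of Paneth cells from progenitors was -0.89 ± 0.17 (adjusted p = 1.89e-05) and from ISCs -0.61 ± 0.17 (adjusted p = 0.00233). Among animals that gave both cell types, Arntl was lower in Paneth cells than in progenitors in 14 of 14, and lower than in ISCs in 13 of 15. Progenitors and ISCs differed by 0.28 ± 0.17 (adjusted p = 0.197). In young animals alone the difference of Paneth cells from ISCs was -0.43 (adjusted p = 0.0788).

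Clock (chr5:76209868-76304792, minus strand) encodes the partner of ARNTL. Its median was 21.5 CPM in ISCs (8.99 to 30.6), 23.0 CPM in progenitors (11.99 to 32.8) and 18.3 CPM in Paneth cells (3.91 to 56.3). The ranges lay over each other. The differences were 0.07 ± 0.19 for progenitors against ISCs, -0.10 ± 0.18 for Paneth cells against ISCs and -0.17 ± 0.19 for Paneth cells against progenitors, each within 1 SE of 0. The signs were those of Arntl in each comparison, and the difference between the genes was not tested.

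Nr1d1 (REV-ERB alpha) encodes a heme-binding receptor that represses Arntl. It ranged from 7.81 to 56.8 CPM in ISCs (median 14.5), from 7.52 to 33.7 CPM in progenitors (median 16.8) and from 12.8 to 67.9 CPM in Paneth cells (median 27.5). All but 1 of the 24 Paneth samples lay over the ISC median and all but 1 over the progenitor median. The difference of Paneth cells from ISCs was 0.78 ± 0.19 (adjusted p = 0.000336) and from progenitors 1.03 ± 0.19 (adjusted p = 9.32e-06). It was higher in Paneth cells in 12 of 15 animals against their own ISCs and in 12 of 14 against their own progenitors. Progenitors and ISCs differed by -0.25 ± 0.19 (adjusted p = 0.326), but progenitors were higher in 8 of 10 animals with both, and with the animal as a block the difference was 0.11 (adjusted p = 0.78).

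The 3' end of Nr1d1 (chr11:98767932-98775333, minus strand, GRCm38) overlaps that of Thra, a thyroid hormone receptor gene on the other strand, by 1075 bases. The libraries were made from the 3' ends of transcripts, and the sources used here do not say whether counting used strand. Thra had 108 ± 13.2 CPM in ISCs, 77.1 ± 14.8 CPM in progenitors and 109 ± 42.2 CPM in Paneth cells (mean ± SD, n = 23, 20 and 24). It was 0.50 ± 0.11 higher in Paneth cells than in progenitors (adjusted p = 0.000224) and differed from ISCs by 0.01 ± 0.11 (adjusted p = 0.942). Thra thus moved with Nr1d1 in the first comparison and not in the second, and its part in the Nr1d1 values was not tested.

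Nr1d2 (REV-ERB beta, chr14:18204054-18239127, minus strand) encodes the sister receptor. It ranged from 0.935 to 26.0 CPM in ISCs (median 11.5), from 1.47 to 15.1 CPM in progenitors (median 4.37) and from 0 to 36.5 CPM in Paneth cells (median 11.7). Only 1 of the 20 progenitor samples lay over the ISC median. Progenitors were lower than ISCs by -1.22 ± 0.34 (adjusted p = 0.0023), in 9 of 10 animals with both, and Paneth cells were higher than progenitors by 1.28 ± 0.34 (adjusted p = 0.0014), in 11 of 14. Paneth cells and ISCs differed by 0.06 ± 0.32. In aged animals alone the difference of progenitors from ISCs was -1.10 (adjusted p = 0.126) and that of Paneth cells from progenitors 1.06 (adjusted p = 0.141). Both receptor genes were higher in Paneth cells than in progenitors, and a difference between the genes was not tested.

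**Figure D2:**
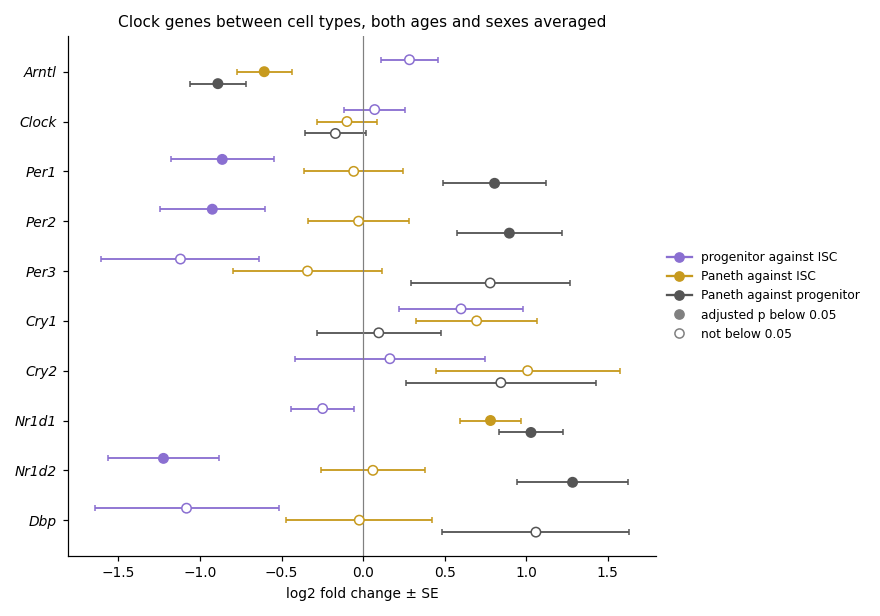
Log2 fold change (horizontal axis, bars of 1 SE) of each clock gene in 3 comparisons of cell types, with filled circles for adjusted p under 0.05. Filled points lie left of 0 for Arntl in both Paneth comparisons (-0.61 and -0.89), and for Per1, Per2 and Nr1d2 in progenitors against ISCs.

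The Per genes encode the period proteins, the rhythmic part of the repressor, with Per1 at chr11:69095217-69109960 (plus strand), Per2 at chr1:91415982-91459324 (minus) and Per3 at chr4:151003652-151044665 (minus). Per1 had a median of 8.92 CPM in ISCs (1.52 to 26.3), 5.30 CPM in progenitors (0.961 to 11.9) and 7.28 CPM in Paneth cells (2.07 to 32.7). Per2 had a median of 6.47 CPM in ISCs (0.153 to 21.8), 3.71 CPM in progenitors (0.604 to 14.8) and 8.09 CPM in Paneth cells (0.853 to 17.3). The high end of both genes' ranges was lowest in progenitors, and the low ends overlapped. Per1 was lower in progenitors than in ISCs by -0.86 ± 0.32 (adjusted p = 0.0238) and Per2 by -0.92 ± 0.32 (adjusted p = 0.0173). Against progenitors, Paneth cells were higher by 0.81 ± 0.32 for Per1 (adjusted p = 0.0349) and by 0.90 ± 0.32 for Per2 (adjusted p = 0.021).

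Some of these Per calls were lost under alternatives. With the animal as a block, Per2 in progenitors against ISCs was -0.25 (adjusted p = 0.735), and it was lower in 5 of the 10 animals with both cell types. The same fit gave 0.80 for Per1 (adjusted p = 0.0721) and 0.77 for Per2 (adjusted p = 0.135) in Paneth cells against progenitors, while Per1 in progenitors against ISCs kept its call (-0.96, adjusted p = 0.0481). In aged animals alone, Per2 differed between progenitors and ISCs by -0.39 (adjusted p = 0.616) and Per1 by -0.75 (adjusted p = 0.269), and between Paneth cells and progenitors by 0.49 (adjusted p = 0.503) and 0.94 (adjusted p = 0.149). In young animals alone Per1 did not pass in either comparison (-1.01, adjusted p = 0.0674, and 0.72, adjusted p = 0.19), and Per2 passed in both (-1.49, adjusted p = 0.00839, and 1.37, adjusted p = 0.0145).

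Per1 and Per2 are also induced by acute stimuli, so 6 immediate early genes were read beside them. In progenitors against ISCs, 4 of the 6 were called lower and 0 higher, beside 18.4% of all genes lower, led by Jun (-2.20 ± 0.20, adjusted p = 9.12e-15). In Paneth cells against progenitors all 6 (Fos, Jun, Junb, Egr1, Ier2 and Atf3) were called higher, beside 21.1% of all genes, led again by Jun (2.29 ± 0.20, adjusted p = 2.78e-15). Their part in the Per1 and Per2 values was not tested. Against ISCs, Paneth cells were higher for 3 of the 6 (Atf3, Junb and Fos), while Per1 (-0.06 ± 0.30) and Per2 (-0.03 ± 0.31) lay within 1 SE of 0.

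Per3, Cry2 and Dbp were counted too rarely for a firm comparison. Per3 had medians of 1.79, 1.02 and 1.07 CPM in ISCs, progenitors and Paneth cells, Cry2 of 0.81, 1.26 and 1.24 CPM, and Dbp of 0.697, 0.417 and 1.56 CPM. A count of 0, which allows up to 3 counts, corresponded to at most 0.861 CPM in an ISC sample, 0.877 CPM in a progenitor sample and 2.17 CPM in a Paneth sample, counting error only. Dbp (chr7:45705088-45710203, plus strand), whose product drives many daily output genes, was at 0 in 3 ISC, 4 progenitor and 2 Paneth samples. Dbp in progenitors against ISCs was -1.08 ± 0.56 (adjusted p = 0.123) and Paneth cells against progenitors 1.06 ± 0.57 (adjusted p = 0.135). The last 737 bases of Dbp overlap Sphk2 on the other strand, a sphingosine kinase gene that was higher in Paneth cells than in progenitors by 0.45 ± 0.11 (adjusted p = 0.000726), and its part in the Dbp values was not tested.

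Per3, which lies whole within the larger gene Camta1 on the same strand, was -1.12 ± 0.48 in progenitors against ISCs (adjusted p = 0.0585). Camta1 averaged 3.88 ± 2.79 CPM in ISCs and 1.99 ± 1.22 CPM in progenitors (SD, n = 23 and 20), a difference of -0.89 ± 0.45 (adjusted p = 0.114), and its part in the Per3 values was not tested. The Per3 difference passed the threshold with RLE scaling (-1.17, adjusted p = 0.0468), with DESeq2 (-1.19, adjusted p = 0.0233), with unscaled library totals (-1.25, adjusted p = 0.0364) and without mitochondrial transcripts (-1.16, adjusted p = 0.0496). In Paneth cells against progenitors Per3 was 0.78 ± 0.49 (adjusted p = 0.201).

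The cryptochromes Cry1 and Cry2 (chr10:85131700-85185064 and chr2:92403646-92434043, both minus strand) are the other part of the repressor. Cry1 had a median of 4.05 CPM in ISCs (0 to 13.7), 7.08 CPM in progenitors (0.729 to 13.7) and 8.61 CPM in Paneth cells (0 to 26.3). No comparison of Cry1 or Cry2 passed. Cry1 differed from ISCs by 0.60 ± 0.38 in progenitors (adjusted p = 0.217) and 0.70 ± 0.37 in Paneth cells (adjusted p = 0.123), and in aged animals alone the latter was 1.41 (adjusted p = 0.039). Cry2 in Paneth cells was 1.01 ± 0.56 against ISCs (adjusted p = 0.142) and 0.84 ± 0.58 against progenitors (adjusted p = 0.251), and the first of these was -0.11 with the animal as a block.

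All directions that involve Paneth cells are relative to the other genes of the library. With unscaled library totals, in which mitochondrial transcripts count in full, the median gene was -1.75 in Paneth cells against ISCs, -1.57 against progenitors, and -0.18 in progenitors against ISCs. Nr1d1 was then -0.94 against ISCs, which is 0.81 above that median gene, and -0.56 against progenitors, 1.01 above it. On the same scale Cry1 (-1.01) and Cry2 (-0.65) turned negative against ISCs, as did Per3, Cry2 and Dbp against progenitors. Per1 (-0.76), Per2 (-0.68) and Nr1d2 (-0.35) turned negative against progenitors as well, and lay 0.81, 0.89 and 1.22 above the median gene. Arntl lay 0.57 and 0.89 below it. The share of calls that were higher was 5.24% and 3.79% with library totals in the Paneth comparisons, against 53.1% and 52.8% with TMM, and 38.3% against 52.2% in progenitors against ISCs.

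The other genes of the clock were read from a fixed list of 19 regulators and kinases, of which 14 were tested between cell types. In progenitors against ISCs 2 were called higher and 3 lower, in Paneth cells against ISCs 2 were higher, and in Paneth cells against progenitors 6 were higher and 2 lower. Of all genes 38.6%, 43.2% and 40% were called in either direction in these comparisons, so the counts do not set the list apart. Bhlhe40 (DEC1), a repressor that competes at E-boxes, was the one with the smallest p in progenitors, at 1.78 ± 0.19 above ISCs (adjusted p = 3.04e-13), and was 1.00 ± 0.18 above ISCs in Paneth cells. Csnk1e, a kinase that marks the period proteins for degradation, was -1.42 ± 0.21 in progenitors against ISCs (adjusted p = 1.94e-08) and 1.40 ± 0.21 in Paneth cells against progenitors. Cipc, an inhibitor of CLOCK, was 1.17 ± 0.24 higher in progenitors than in ISCs (adjusted p = 3.65e-05), while Timeless was lower by -1.08 ± 0.27 and Fbxl21 by -2.13 ± 0.70. Against progenitors, Paneth cells were also higher for Tef, a relative of Dbp (1.19 ± 0.36), Fbxl21 (2.36 ± 0.71), Csnk1d (0.42 ± 0.10), Gsk3b (0.71 ± 0.23) and Npas2, a relative of Clock (1.06 ± 0.43), and lower for Bhlhe40 and Cipc.

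Of 12 genes with known daily rhythms in many tissues, 11 were tested between cell types. In progenitors against ISCs 5 were called higher and 2 lower, in Paneth cells against ISCs 6 and 1, and in Paneth cells against progenitors 2 and 1, beside the same 38.6%, 43.2% and 40% of all genes. The largest differences were those of the nutrient and ion carriers Slc15a1 (5.07 ± 0.69 in progenitors against ISCs) and Slc9a3 (4.64 ± 0.54). In the same comparison all 6 enterocyte markers were higher, with a median of 4.06, and the part of enterocyte maturation in these values was not tested. Wee1, a cell cycle kinase under E-box control in liver, was -1.15 ± 0.19 in progenitors and -1.02 ± 0.19 in Paneth cells, each against ISCs. Of 4 proliferation genes, 3 were called lower in progenitors (median -0.49) and 4 in Paneth cells (median -1.04), each against ISCs. Their part in the values of Wee1 and Timeless was not tested. Noct, a rhythmic phosphatase gene, was higher in Paneth cells than in ISCs by 1.07 ± 0.19 and than in progenitors by 1.11 ± 0.20.

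With age, the clock transcripts did not change past the threshold in any cell type. Of the clock genes 10 were tested in ISCs and progenitors and 9 in Paneth cells, where Dbp fell under the count filter, and 0 were called by edgeR. Of all genes 0.351%, 0.728% and 0.0686% were called (ISCs, progenitors, Paneth cells). At an unadjusted p under 0.05 there were 0, 2 and 0 clock genes, beside 8.90%, 9.06% and 6.83% of all genes. DESeq2 and limma-voom called 0 clock genes in each. The clock genes' median was -0.04 among ISCs, 0.09 for progenitors and 0.14 for Paneth cells, where the medians of all genes were 0.00, 0.00 and 0.01. Young and aged ranges overlapped for all 10 genes in all 3 cell types, and overlap was not counted over all genes.

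Arntl in ISCs averaged 45.7 ± 11.9 CPM in young mice and 53.1 ± 12.5 CPM in aged mice (SD, n = 11 and 12), a difference of 0.17 ± 0.15 (adjusted p = 0.822). In progenitors it averaged 57.7 ± 11.6 and 63.8 ± 19.4 CPM (n = 10 and 10), and in Paneth cells 33.4 ± 12.6 and 32.7 ± 24.3 CPM (n = 12 and 12). The means lay within 1 SD of each other in every cell type. Per1 in ISCs averaged 11.8 ± 6.45 CPM in young and 9.28 ± 7.30 CPM in aged mice, a difference of -0.36 ± 0.36 (adjusted p = 0.858). The other 8 genes in ISCs lay between -0.33 and 0.50, each within 1 SE of 0, as did 7 genes in progenitors, between -0.26 and 0.31, and 7 in Paneth cells, between -0.16 and 0.26.

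The nearest to a change were Per2 and Per3 in progenitors. Per2 ran from 0.604 to 6.87 CPM in young progenitors (median 2.68) and from 1.35 to 14.8 CPM in aged ones (median 5.91), and 8 of the 10 aged samples lay over the young median. The difference was 1.08 ± 0.38 (unadjusted p = 0.00757, adjusted p = 0.281 by edgeR), and without each sample in turn the adjusted p ran from 0.0848 to 0.495. Its means were 2.75 ± 2.40 and 5.23 ± 3.03 CPM in young and aged males and 3.29 ± 0.75 and 8.04 ± 5.07 CPM in young and aged females (SD, n = 5 each). Per3 ran from 0.119 to 1.47 CPM in young progenitors and from 0.295 to 4.83 CPM in aged ones, with 6 of the 10 aged samples over every young one. Its difference was 1.49 ± 0.58 (unadjusted p = 0.0156, adjusted p = 0.377 by edgeR). Beside them, the immediate early gene Atf3 was called higher in aged progenitors (2.08 ± 0.47, adjusted p = 0.0203), the other 5 of that list were above 0 without passing, and their part in the Per values was not tested. Cell type markers also moved in this comparison: enteroendocrine markers were above 0 in 5 of 5 (median 1.07, Sct called higher), enterocyte markers in 6 of 6 (median 0.53, 0 called) and ISC markers in 1 of 6 (median -0.24, 0 called), and of 4 proliferation genes Top2a was called lower. Their part was not tested either. Immediate early genes were above 0 with age in 6 of 6 in ISCs and in Paneth cells too (medians 0.67 and 0.53). In those cell types the age difference of Per2 was -0.01 ± 0.42 and 0.22 ± 0.49, and that of Per3 0.50 ± 0.57 and 1.55 ± 0.84.

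In Paneth cells Per3 was 1.55 ± 0.84 (adjusted p = 0.769), from 0 to 3.41 CPM in young and 0 to 10.7 CPM in aged samples. Cry1 there was 1.12 ± 0.63 (adjusted p = 0.786), from 0.445 to 14.8 CPM in young and 0 to 26.3 CPM in aged samples, with 10 of 12 aged samples over the young median. Neither passed the threshold, and young and aged samples overlapped. Dbp in progenitors was 0.86 ± 0.76 (adjusted p = 0.822). The same held of the wider lists, in which 0 of the 13 to 15 regulators and kinases tested and 0 of the 9 to 11 rhythmic output genes tested were called with age in any cell type.

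**Figure D3:**
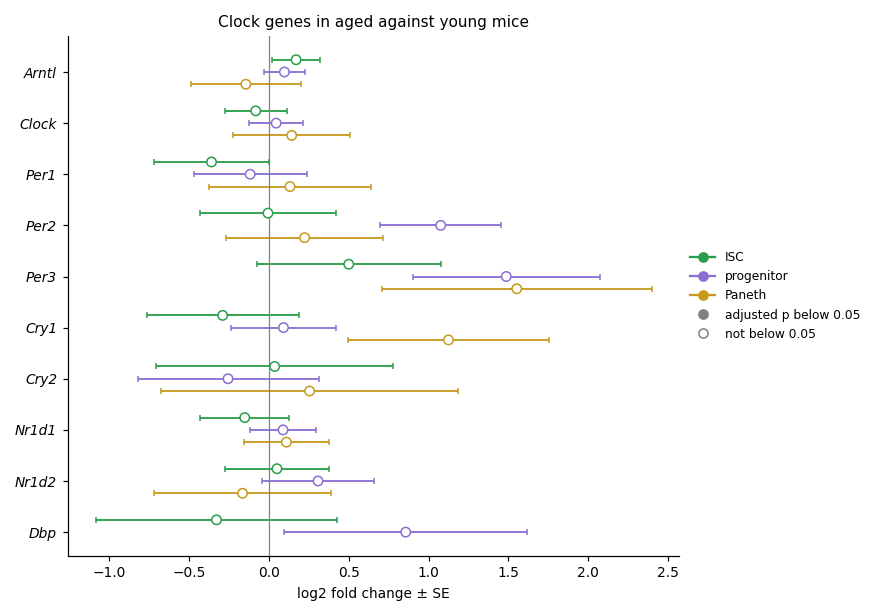
Log2 fold change in aged against young mice (horizontal axis, bars of 1 SE) of each clock gene in ISCs, progenitors and Paneth cells, with open circles for adjusted p of 0.05 or more. No circle is filled, and the points farthest from 0 are those of Per3 in progenitors (1.49) and Paneth cells (1.55).

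The age effects did not differ between cell types or sexes past the threshold. For progenitors minus ISCs, Paneth cells minus ISCs and Paneth cells minus progenitors, 0 of the 10 clock genes were called, beside 0.00753%, 0.0376% and 0% of all genes. In each, 0 clock genes had an unadjusted p under 0.05, beside 2.19%, 8.91% and 7.27% of all genes, and DESeq2 called 0 clock genes. For males minus females, 0 clock genes were called in any cell type, beside 0% of all genes in each, and DESeq2 called 0 clock genes. At an unadjusted p under 0.05 there were 0, 1 and 0 clock genes, beside 838, 731 and 621 of all genes (7.01%, 6.19% and 5.32%). The 1 was Nr1d1 in progenitors (0.95 ± 0.42, adjusted p = 0.788). In ISCs the age effect of 8 of the 10 genes was lower in males, with a median of -1.15 beside 0.00 for all genes, and the lowest adjusted p was 0.758. Aged males were 24 to 27 months old in ISCs and 23 to 27 in progenitors and Paneth cells. Aged females were 23 to 24 months old in ISCs and Paneth cells and 23 in progenitors. The part of these ages in the comparisons of sexes, here and below, was not tested.

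Males and females were alike for calls: 0 clock genes passed in ISCs, progenitors or Paneth cells, beside 0.0836%, 0.135% and 0.0257% of all genes, and DESeq2 called 0. At an unadjusted p under 0.05 there were 1, 2 and 0, beside 7.33%, 7.92% and 4.63% of all genes. Arntl in progenitors was higher in males by 0.42 ± 0.13 (unadjusted p = 0.0021, adjusted p = 0.295 by edgeR), Cry2 in progenitors by 1.21 ± 0.57 (adjusted p = 0.607), and Nr1d1 in ISCs was lower in males by -0.69 ± 0.28 (adjusted p = 0.555).

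The animals were then compared with themselves, since 10 mice gave both ISCs and progenitors, 15 ISCs and Paneth cells and 14 progenitors and Paneth cells. For each gene the log2 CPM of the pair of cell types was correlated over the shared animals after subtracting the mean of each age class, and p-values came from permutation within age class. Of the 30 relations 0 passed after adjustment and 3 had an unadjusted p under 0.05. The median r over the 10 genes was 0.23 for ISCs and progenitors, 0.17 for ISCs and Paneth cells and 0.16 for progenitors and Paneth cells.

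The relation with the smallest p was Cry1 in ISCs and progenitors, with r = 0.892 over 10 animals (exact permutation p = 0.00215, adjusted p = 0.0646) and rho = 0.806 (exact permutation p = 0.0112, adjusted p = 0.335). Without the 2 animals farthest from the median in ISCs r was 0.707 (exact permutation p = 0.0722), so the relation rests in part on them. Leaving out animals singly gave r from 0.773 to 0.934 (permutation adjusted p from 0.0104 to 0.406). Of these runs, 1 passed (0.934, permutation adjusted p = 0.0104). It left out the young female of ISC young female 6, progenitor young female 3 and Paneth young female 4. Without centring the Cry1 relation was 0.893 (permutation adjusted p = 0.0237), and with centring on age and sex 0.853 (permutation adjusted p = 0.469). Nr1d1 in ISCs and Paneth cells had r = 0.649 over 15 animals (permutation p = 0.0208, adjusted p = 0.312, rho = 0.607 with permutation p = 0.0265 and adjusted p = 0.397), and 0.442 without the 2 farthest. Nr1d1 in ISCs and progenitors had r = 0.67 over 10 animals (exact permutation p = 0.0468, adjusted p = 0.468, rho = 0.673 with p = 0.0509 and adjusted p = 0.452), and 0.48 without the 2 farthest. With centring on age and sex the latter relation was 0.283 (permutation adjusted p = 0.892). Nr1d1 in progenitors and Paneth cells had r = 0.000746 over 14 animals (permutation p = 0.998). Cry1 had r = 0.343 in ISCs and Paneth cells and 0.178 in progenitors and Paneth cells. The lowest r was that of Cry2 in ISCs and Paneth cells (-0.489, permutation p = 0.0806, adjusted p = 0.472). Arntl had r of 0.092, 0.238 and -0.124 in the 3 pairs of cell types.

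**Figure D4:**
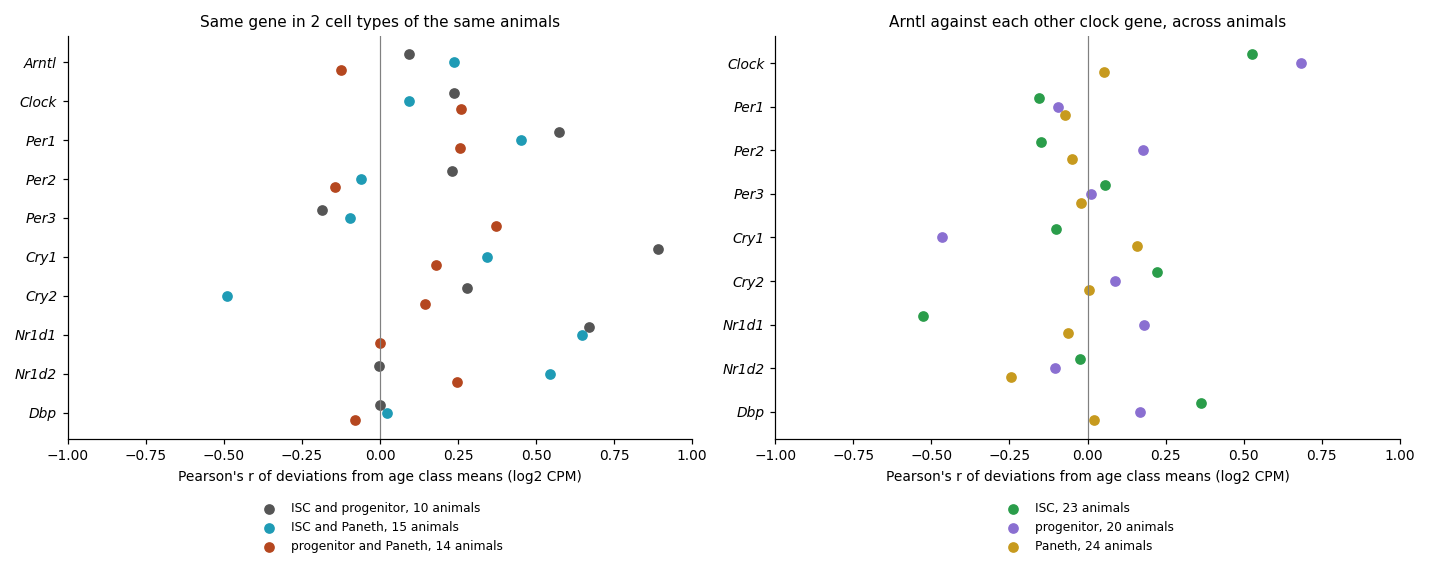
Pearson's r (horizontal axis) of the same clock gene in 2 cell types of the same animals (left) and of Arntl with each other clock gene across animals (right), after subtracting age class means. Points spread on both sides of 0, and the farthest on the right are Cry1 in ISCs and progenitors (0.892) and Clock in progenitors (0.685).

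Arntl was set against each of the other 9 genes in the same way within each cell type. Of 27 relations 0 passed and 3 had an unadjusted p under 0.05. Clock went with Arntl in progenitors, with r = 0.685 over 20 animals (permutation p = 0.00218, adjusted p = 0.0589, rho = 0.598 with permutation p = 0.00936 and adjusted p = 0.159), and 0.497 without the 2 farthest. It was 0.564 with centring on age and sex (permutation adjusted p = 0.329) and 0.682 without centring (permutation adjusted p = 0.0189). In ISCs the same pair had r = 0.527 over 23 animals (permutation p = 0.00937, adjusted p = 0.104, rho = 0.456 with permutation p = 0.0307 and adjusted p = 0.276), and 0.534 without the 2 farthest. In Paneth cells it had r = 0.054 over 24 animals (permutation p = 0.806). Nr1d1, the repressor of Arntl, ran against it in ISCs, with r = -0.526 (permutation p = 0.0115, adjusted p = 0.104, rho = -0.529 with permutation p = 0.0118 and adjusted p = 0.159), and -0.479 without the 2 farthest. The latter value was 0.18 in progenitors and -0.062 in Paneth cells.

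The genes whose deviations were most like those of Arntl over the 67 samples were ranked by the mean r over the 3 cell types, as a description with no test, since these genes share libraries and depth. The highest were Ndfip2 (0.485), Nup54 (0.485), Epg5 (0.47), Cask (0.464), Cth (0.464), Cdc14a (0.461), Mgat3 (0.459) and Tbc1d23 (0.453), and the lowest Erlec1 (-0.517), Sgta (-0.512), Dcaf4 (-0.509) and Vars (-0.5). None of them is a clock gene, and Clock came 67th of 8550 genes (0.375). Only genes with a mean of at least 5 CPM in each cell type were ranked. Per2, Per3, Cry2 and Dbp fell under this limit and could not appear. The least like Dbp were Crot (-0.492), Slc3a1, BC052040 and Esrp2 (-0.45). At a median of 5 or fewer counts of Dbp per sample in each cell type, these weak values are no finding.

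The spread between animals of the same age and sex was smallest for Arntl and Clock in ISCs and progenitors and for Nr1d1 in Paneth cells. Of 29 values (10 genes in ISCs and progenitors, 9 in Paneth cells), 23 lay over the median SD of all genes tested. In ISCs the SD of log2 CPM was 0.35 for Arntl and 0.45 for Clock, at percentiles 24.4 and 40.8 of all genes, against 1.21 for Per2 (percentile 91.4) and 1.19 for Cry1 (percentile 90.8). In progenitors Arntl was at percentile 24.7 and Per2 at 87.3, and in each of these cell types 7 of the 10 genes were over percentile 80. Since low counts also widen the SD, the biological coefficient of variation was set against that which edgeR fits to genes of the same level, and the ratio in ISCs was 0.98 for Arntl, 1.36 for Per2, 1.32 for Nr1d1 and 1.26 for Per1. In progenitors the same ratios were 0.96, 1.11, 1.04 and 1.15, and in Paneth cells 1.11, 0.84, 0.88 and 0.97.

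Technical Paneth libraries, 69 from 24 mice, gave the spread within an animal. Here log2 CPM was relative to the full library total, with mitochondrial transcripts and without TMM, and means of age and sex were not subtracted. On this scale the share of the variance that lay between animals was 0 for Clock, Per2, Per3, Cry1 and Nr1d2. It was 0.063 for Per1, 0.151 for Nr1d1, 0.228 for Cry2, 0.245 for Arntl and 0.258 for Dbp. The mitochondrial share ran from 31.4% to 73.4% between Paneth samples, and its part in these values was not tested. Single libraries had no count of Per3 in 38 of 69, of Cry2 in 43, of Dbp in 31 and of Cry1 in 29, and Nr1d1 was counted in all of them. In 17 of 24 animals, Cry1 was at 0 in one library and above 0 in another of the same mouse. For Clock, Per2, Per3, Cry1 and Nr1d2, Paneth animals thus did not differ detectably on this scale beyond libraries of the same animal.

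**Figure D5:**
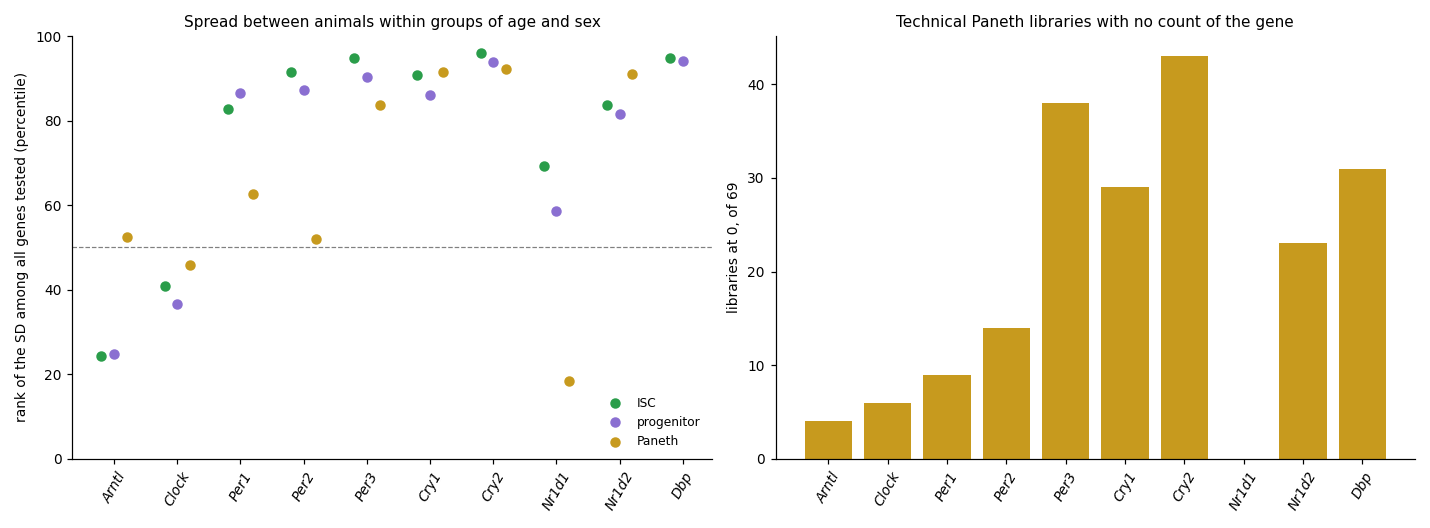
Left, percentile of each clock gene's SD between animals among all genes tested (vertical axis), by cell type, with a dashed line at the median. Right, number of the 69 technical Paneth libraries without a count of the gene: 43 for Cry2 and 0 for Nr1d1.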

How the data were processed

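SC3-seq, which reads the 3' ends of transcripts, had been applied to 1 ng of RNA per library by the authors, who deposited gene counts and counts per M for 112 libraries. Cutadapt 3.0, STAR 2.7.9a, HTSeq 0.13.5, DESeq2 1.30.1 and the build mm10 are named in the submitters' processing notes, while annotation and strand setting are not given in the sources. The authors' deposited counts were used, and no library was identical to another. Groups came from titles and labels, and the 69 technical Paneth libraries were summed per animal, leaving 67 samples of 36 animal names, separate mice except that 2 aged male names may be the same animal. Samples held 2.18 to 11.8 M counts.

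Genes were kept by filterByExpr (minimum count 10), scaled by TMM and tested with edgeR 4.0.16 (quasi-likelihood F test, robust) at Benjamini-Hochberg adjusted p under 0.05, per cell type for age and sex and over all samples for cell types, averaging groups of age and sex equally. Log2 CPM used a prior count of 2. DESeq2 1.42.0, limma 3.58.1 (voom), other scalings, no filter, blocks and left-out samples were alternatives. Permutations were exact up to 100000, else that many were drawn, with a lower limit in the runs that left out single animals. The edgeR fits and the correlations were tested on simulated data. R 4.3.3 and Python 3.11.15 were used. Mice that gave several cell types pair those samples by origin. Deviations of the same mouse correlated over genes at a median r of 0.075 (ISCs and progenitors), 0.051 (ISCs and Paneth cells) and 0.049 (progenitors and Paneth cells), and a fit with the animal as block was an alternative. The members, the gene lists and the rule for named genes (all 10 members, up to 6 called genes per list, the 8 most and 4 least like Arntl and Dbp over 8551 genes of at least 5 CPM) were chosen with earlier results of these data known. The genes most like Dbp are not reported here. The overlapping genes Thra, Sphk2 and Camta1 were added after the annotation (GENCODE M21) was seen.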

Additional observations from a re-analysis of the deposited data

Results flagged for a closer look

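Dixon's test was run in groups of 5 to 7 samples of the same cell type, age and sex. In 9 of 120 cases 1 sample stood apart from the rest of its group, and chance flags about 1 in 20 groups. Nr1d2 accounted for 4 of them, each low: ISC young male 3 had 3.95 CPM (others 10.97 to 15.4), ISC aged male 4 had 0.935 CPM (others 8.69 to 23.8), progenitor aged male 5 had 4.46 CPM (others 5.84 to 6.19), and Paneth aged female 4 had 0 CPM (others 7.38 to 20.7). Nr1d1 was high in 2, at 47.8 CPM in ISC young female 1 (others 22.3 to 29.2) and at 57.0 CPM in Paneth young male 4 (others 22.9 to 30.1). Clock was low in ISC aged male 4, at 10.7 CPM (others 21.5 to 28.9). Per1 was low in progenitor young female 2, at 3.77 CPM (others 7.95 to 9.92), and Per3 in ISC young female 3, at 0.150 CPM from 1 count (others 1.39 to 2.26).

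The mouse behind ISC aged male 4 gave no other cell type. In it, the low Nr1d2 and Clock stood beside 21.8 CPM of Per2, the highest of the 23 ISC samples, 7.17 CPM of Per3, 0 CPM of Dbp and 46.9 CPM of Arntl.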

How the results depend on the processing

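No clock gene was called with age, with sex or in the differences of age effects under any alternative run. Of 261 alternative values of the 37 gene results (with age and between cell types those over 1 SE from 0, for sex and differences of age effects those with unadjusted p under 0.05), other than leaving out single samples, 230 kept their direction and side of the threshold, 12 lost their call, 7 gained one and 12 reversed. With unscaled library totals the reversals were, in Paneth cells against ISCs, Cry1 (-1.01), Cry2 (-0.65) and Nr1d1 (-0.94), and against progenitors Per1 (-0.76), Per2 (-0.68), Per3 (-0.76), Cry2 (-0.67), Nr1d1 (-0.56), Nr1d2 (-0.35) and Dbp (-0.52). With the animal as a block, Nr1d1 in progenitors against ISCs (0.11) and Cry2 in Paneth cells against ISCs (-0.11) reversed, and the cause was not tested.

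Of the clock genes, 0 were called in progenitors against ISCs in aged animals alone, beside 3051 of 12491 genes tested. In Paneth cells against ISCs 9 were called with library totals, beside 12051 of 13287 genes. In young animals alone 1 was called there, beside 3763 of 12376 genes. Against progenitors 3 were called with the animal block, beside 4013 of 13287 genes, and 2 in aged animals alone, beside 3007 of 12491. Fewer samples enter the fits of a single age. Left out singly, the samples moved these counts between 2 and 4, 2 and 2, and 4 and 5. Per1 in progenitors against ISCs lost its call without ISC aged male 5 or ISC aged female 2 (adjusted p up to 0.0586), and Per2 without ISC aged male 4 (0.0502). Per1 in Paneth cells against progenitors lost its call without any of 13 samples: progenitor young male 2 and 3, young female 2, aged male 1 and 2 and aged female 2, and Paneth young male 1 and 6, young female 3 and 6, aged male 2 and 5 and aged female 5 (adjusted p up to 0.107). Per3 in progenitors against ISCs gained one without any of 8: ISC young male 1 and 2, young female 3, aged male 5 and aged female 5, and progenitor young male 2, aged male 3 and aged female 3 (as low as 0.0394).

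Replicate numbers of the titles do not pair samples (median r of deviations 0.016, 0.002 and 0.007 in ISCs, progenitors and Paneth cells). With them as a block, 42, 83 and 11 genes were called with age, 6, 12 and 3 with sex, and 7, 0 and 0 for the age effect in males minus females. With the animal as a block 3214 genes were called in progenitors against ISCs and 0 for the age effect in progenitors minus ISCs.

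Over all genes, DESeq2 called 106, 142 and 30 with age in ISCs, progenitors and Paneth cells, 24, 37 and 9 with sex, 2 for males minus females in progenitors, and 4, 36 and 17 for the age effect in progenitors minus ISCs, Paneth cells minus ISCs and Paneth cells minus progenitors. Age called 34 in progenitors and 2 in Paneth cells without mice of 26 and 27 months. In Paneth cells limma-voom called 14, library totals 22 and the first technical library alone 3. Of the calls with age in progenitors 64.0% were higher, and 53.1% with library totals. Between cell types, young animals alone gave 3006, 3763 and 3395 calls and aged ones 3051, 3572 and 3007 (progenitors against ISCs, then Paneth cells against ISCs and progenitors), and library totals 12051 and 11416 in the Paneth comparisons. Leaving out samples singly gave 3 to 13 calls with age in Paneth cells (3 without aged female 1, 5 without young female 4, 13 without young female 6), 5 to 14 with sex in ISCs, 10 to 37 in progenitors (10 without young male 5, 37 without young female 4), 0 to 1 for males minus females in progenitors, 0 to 1 for the age effect in progenitors minus ISCs and 0 to 10 in Paneth cells minus ISCs.

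Without centring, 1 relation of the same gene between cell types and 1 of Arntl with another gene passed, and leaving out animals singly gave 0 to 1 in each. The latter passed without the mice of progenitor aged male 1, progenitor aged female 3 or progenitor young female 1 (r of 0.741, 0.725 and 0.714 for Arntl with Clock). Low counts limit Per3, Cry2 and Dbp. Paneth samples had the most counts, but after TMM scaling, with their mitochondrial share, also the highest level that a count of 0 allows.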
